A study of Homo sapiens with 24 samples.

Results

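The genes of this report encode factors that recognize the 3′ splice site early in spliceosome assembly: U2AF1, U2AF2, U2AF1L4, SF1, ZRSR2, PUF60, RBM17, CHERP, U2SURP and SUGP1. They were chosen by name for this role, and all 10 had junctions in the data: 1845 of the 1823643 junction rows used lay on the strand and within the GRCh37 span of 1 of them. RNA-seq of poly(A) RNA was done in HCT116 (HCT-116), a human colorectal carcinoma cell line, in 24 samples. The 4 groups of 6 were cells with WT PHF5A in DMSO, the same cells in E7107, cells with PHF5A Y36C in DMSO, and those in E7107, called by genotype and treatment below (WT DMSO, for example). PHF5A, either WT or with the tyrosine-to-cysteine change at residue 36 (Y36C), was overexpressed in parental HCT116, so that the cells' own PHF5A gene was present in every group. Treatment lasted 6 h by the study's methods, and the labels give no dose.

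In textbook splicing, SF1 binds the branch point sequence, U2AF2 the polypyrimidine tract and U2AF1 the AG at the end of the intron. SF1 is then displaced as the U2 snRNP, with its SF3b complex, takes over the branch point adenosine. E7107, a pladienolide derivative, binds SF3b where PHF5A and SF3B1 form the pocket for that adenosine. The other members work beside these: U2AF1L4 is a paralogue of U2AF1, ZRSR2 serves introns of the minor spliceosome, PUF60 binds pyrimidine tracts and is related to U2AF2, RBM17 (SPF45), CHERP and U2SURP (SR140) accompany the U2 snRNP, and SUGP1 is a G-patch protein that binds SF3B1. The question put to the data was how the pre-mRNAs of these factors were themselves spliced under E7107 with either PHF5A.

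The unit of measurement was percent spliced in (PSI), the percentage of junction reads at 1 splice site that belong to 1 junction. Reads that cross a splice site unspliced count as a junction of their own. A PSI of 40% at such a boundary means that 40% of the reads at that splice site crossed it. That value is called retention. Retention of an intron is the mean of its 5′ and 3′ boundary, and retention of a gene is the mean over its annotated boundaries. Such reads can come from RNA with the intron in place. At an alternative splice site they can also come from RNA spliced at a neighbouring site, where the boundary lies within an exon. The values of alternative introns and of whole genes include such sites. In WT DMSO the gene mean of PUF60 was 15.2%, and its highest canonical intron mean was 5.38%. The files give no read counts, so the depth behind a single PSI is unknown. Of 636130 splice sites, between 281164 and 283548 had reads in the WT E7107 samples, against 328458 to 340081 in the other groups, and no pair of samples had identical values.

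The splice sites below carry the results. Each is from the GRCh37 genome, on the transcribed strand, with exon in capitals and intron in lower case. The first pair is the 3′ end of the CHERP intron that rose most and of the one that rose least with E7107 in WT cells, chr19:16634097-16634146 and chr19:16640707-16640756, both on the minus strand. The introns named for the largest or smallest rise all lie within the coding span of the gene's Ensembl canonical transcript. Whether the exons beside the alternative introns among them are coding was not tested.
CHERP intron 10: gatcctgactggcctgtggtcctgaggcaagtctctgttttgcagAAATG
CHERP intron 7: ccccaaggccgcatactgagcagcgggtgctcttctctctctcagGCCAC
Next are 4 coding exons whose skipping changed, with 40 bases of intron before and 10 after: SF1 exon 3 (chr11:64540892-64541017, minus strand), in WT E7107 above all, and U2AF2 exon 3 (chr19:56171503-56171597, plus strand), U2SURP exon 13 (chr3:142742777-142742870, plus strand) and SUGP1 exon 3 (chr19:19420896-19421049, minus strand), all in Y36C E7107.
SF1 exon 3: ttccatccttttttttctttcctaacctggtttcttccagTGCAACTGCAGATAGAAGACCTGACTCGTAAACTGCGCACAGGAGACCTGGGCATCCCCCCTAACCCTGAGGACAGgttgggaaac
U2AF2 exon 3: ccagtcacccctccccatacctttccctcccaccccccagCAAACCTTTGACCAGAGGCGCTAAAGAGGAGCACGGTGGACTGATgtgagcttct
U2SURP exon 13: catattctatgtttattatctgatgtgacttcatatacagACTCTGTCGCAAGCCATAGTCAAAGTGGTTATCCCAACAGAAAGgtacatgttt
SUGP1 exon 3: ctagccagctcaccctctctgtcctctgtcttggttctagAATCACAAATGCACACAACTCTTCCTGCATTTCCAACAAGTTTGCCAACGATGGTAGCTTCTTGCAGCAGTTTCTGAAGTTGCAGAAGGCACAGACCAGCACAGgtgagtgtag
The last 4 are alternative 3′ splice sites of 1 5′ splice site each. U2AF1 has a pair of exons of 67 nt, identical at 44 of 67 positions, of which a transcript normally holds 1 (upstream exon at chr21:44521466-44521582, downstream exon at chr21:44520553-44520669, minus strand). SF1 has a proximal and a distal acceptor in its last intron (chr11:64533623-64533652 and chr11:64532986-64533015, minus strand).
U2AF1 upstream exon: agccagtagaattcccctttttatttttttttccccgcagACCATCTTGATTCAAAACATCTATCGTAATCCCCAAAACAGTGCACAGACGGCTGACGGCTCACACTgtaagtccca
U2AF1 downstream exon: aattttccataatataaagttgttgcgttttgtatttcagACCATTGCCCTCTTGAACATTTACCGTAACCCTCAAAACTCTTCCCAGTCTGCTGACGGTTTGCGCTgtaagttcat
SF1 proximal acceptor: accttgggcttctttaccaccccagATACG
SF1 distal acceptor: gcctctccccaaaccgggccgccagGATCC

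E7107 raised the retention of every one of the 10 genes in WT cells. CHERP stood far above the rest, followed by SF1, PUF60, U2AF1L4 and RBM17, and U2AF1 and SUGP1 changed least. In Y36C cells 4 of the 10 rose, U2AF1L4 by 7.67 percentage points and the others by 2.21 at most. None fell in either genotype, and without drug none of the 10 passed the test between the genotypes. With the replicate number as a block U2AF1L4 did not pass in Y36C (adjusted p = 0.051) and SUGP1 did (adjusted p = 0.028). The median change over the 10 genes was 17.3 percentage points in WT and 1.46 in Y36C, beside 6.81 and 1.03 over all 10590 genes with at least 3 boundaries. Of all those genes 71.9% rose and 7.54% fell in WT, and 47.2% rose and 0.992% fell in Y36C, at an adjusted p of 0.05 or less (limma with Benjamini-Hochberg adjustment, used for every adjusted p here), and in DMSO 0.34% were higher and 0.227% lower in Y36C. The change in Y36C was smaller than the change in WT for all 10 genes by the interaction test, where 60.3% of all genes were called lower and 13.3% higher, and within E7107 all 10 were lower in Y36C than in WT, where 64.7% were lower and 15.1% higher.

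**Figure D1:**
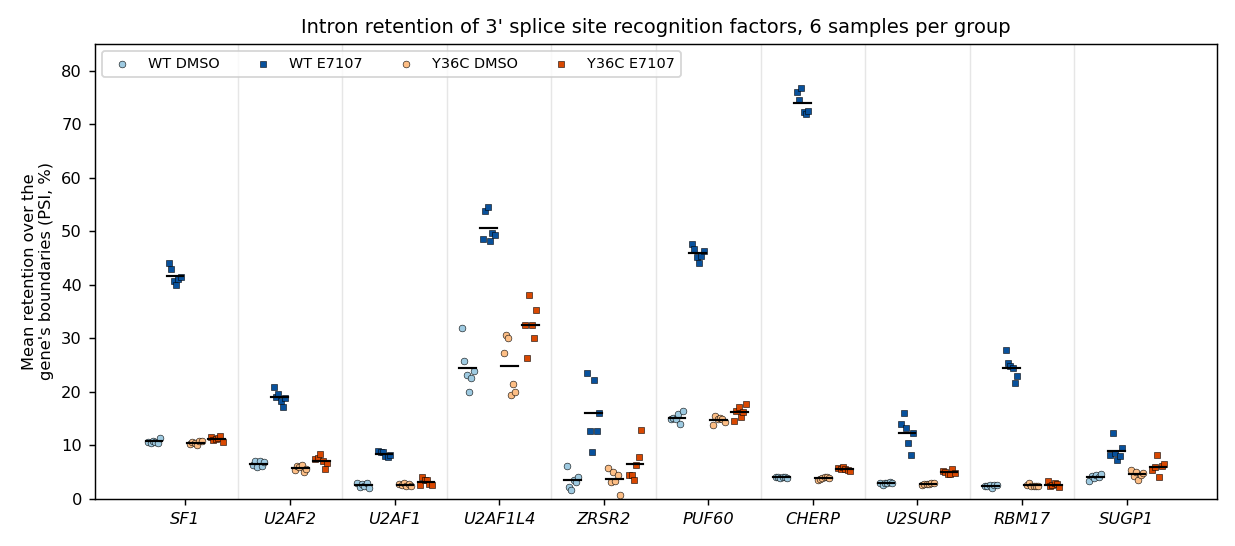
Mean retention of each gene (PSI in %, y axis) in each of the 24 samples, with a bar at the mean of each group of 6; genes run along the x axis. The WT E7107 samples of CHERP lie between 71.9% and 76.9%, and every sample of its other groups at 6.02% or below.

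Counted boundary by boundary, 207 of the 258 boundaries tested (80.2%) rose in WT and 0 fell, against 49.9% and 4.46% of all 165744 boundaries. Y36C gave 33 rises and 3 falls, 12.8% and 1.16% of the members' boundaries, close to the 12.4% and 0.518% over all boundaries. The median change over the members' boundaries, as a difference in natural-log odds, was 2.06 in WT and 0.21 in Y36C, beside 1.22 and 0.22 over all boundaries. In DMSO 1 of the 258 differed, and it was lower in Y36C, while 21 had an unadjusted p under 0.05 (0.0555% of all boundaries were called lower and 0.0712% higher). Between genotypes within E7107, 196 were lower in Y36C and 4 higher (45.6% and 8.7% of all), and by interaction 190 were lower and 4 higher (41.0% and 6.42%); these comparisons share samples with those above. The 4 higher ones all belonged to U2SURP.

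Spliced junctions share their denominator with the boundary at the same splice site, so their PSI falls as retention rises. Of 349 spliced rows tested, 216 fell and 13 rose in WT, where 32.6% of all 298945 spliced rows fell and 5.74% rose. In Y36C 52 fell and 27 rose (12% and 5.62% of all), in DMSO 3 were lower and 3 higher in Y36C (0.0917% and 0.089%), within E7107 215 were higher and 21 lower in Y36C (32.7% and 9.48%), and by interaction 202 were higher and 17 lower (27.8% and 7.37%). All 7 differences found in DMSO, 1 boundary and 6 spliced rows, were in SF1.

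CHERP (chr19:16628705-16653248, minus strand), a partner of U2SURP and RBM17 beside the U2 snRNP, had the largest response. Its gene retention ran from 3.92% over a median of 4.06% to 4.15% in WT DMSO and from 71.9% over 73.5% to 76.9% in WT E7107. It ran from 3.62% over 3.99% to 4.17% in Y36C DMSO and from 5.24% over 5.601% to 6.02% in Y36C E7107. Both E7107 groups lay wholly above their own DMSO group, by very different margins. The difference in natural-log odds was 3.98 (SE 0.052, adjusted p = 1.5e-14) in WT and 0.31 (SE 0.034, adjusted p = 1.63e-05) in Y36C, with an interaction of -3.67 (SE 0.058, adjusted p = 6.08e-23). Among the 10590 genes its change of 69.95 percentage points in WT ranked at position 118 and its change of 1.66 in Y36C at 4035.

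The response covered the whole of CHERP. All 32 of its boundaries tested, those of its 16 canonical introns, rose in WT, and intron means in WT E7107 lay between 47.3% and 89.9%, where WT DMSO had 0.192% to 11.4%. Intron 10 (1951 nt) rose most, from 2.46% ± 0.812 (SD, n = 6) to 81.9% ± 4.91, while Y36C had 2.02% ± 0.773 in DMSO and 3.99% ± 1.62 in E7107. Intron 7 (684 nt) rose least, from 0.67% ± 0.666 to 47.3% ± 7.16, and stood at 0.336% ± 0.39 and 0.552% ± 0.399 in Y36C. Pyrimidines were counted in 17 bases before the AG, leaving out the base next to it. There are 10 in intron 10 and 14 in intron 7, as the sequences above show. The largest increase in Y36C was in intron 14 (98 nt), from 12.9% ± 2.63 to 18.3% ± 2.22, where the 5′ boundary passed the test (adjusted p = 0.029) and the 3′ boundary did not (adjusted p = 0.074). Introns 12 to 16 overlap C19orf44 on the opposite strand and the whole gene overlaps a read-through gene on its own strand (ENSG00000141979). The strandedness of the libraries is not given in the sources used here, and the part of these genes in the values was not tested. Introns 1 to 11 lie outside C19orf44 and rose as well.

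**Figure D2:**
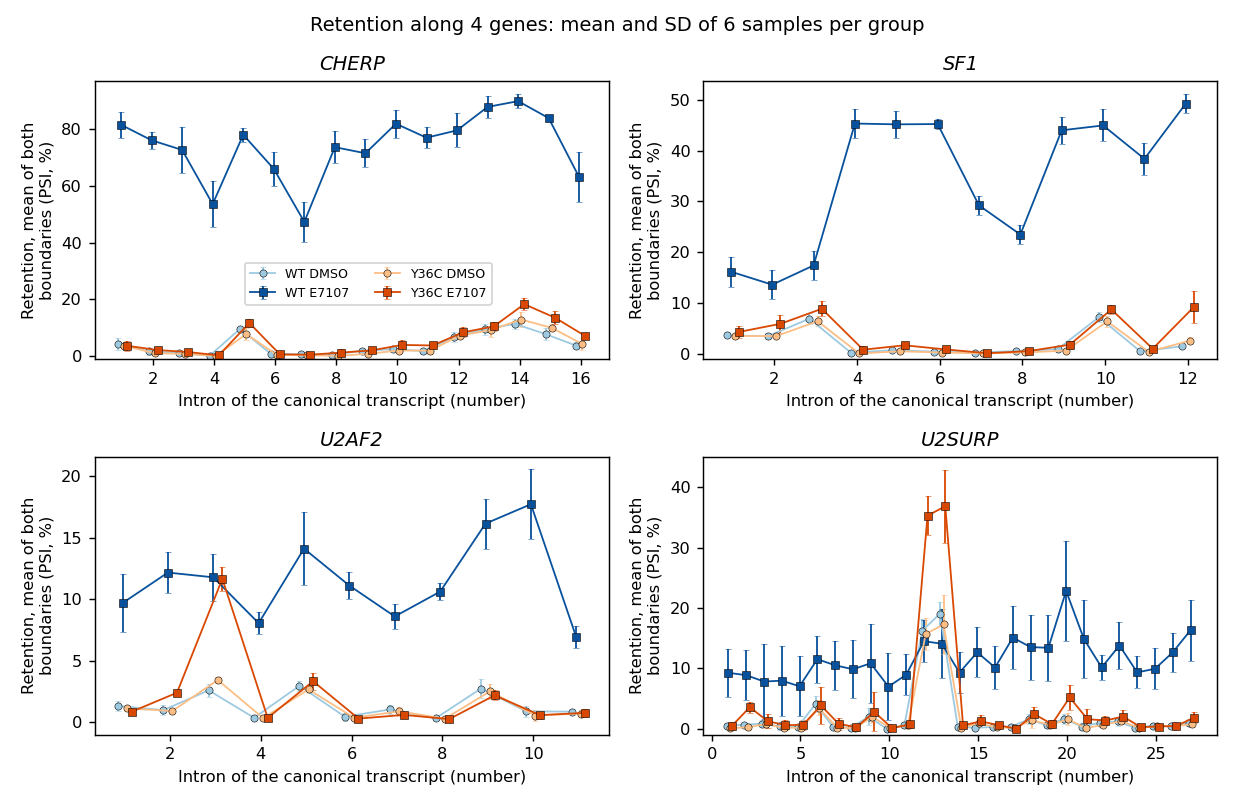
Retention (mean of both boundaries, PSI in %, y axis) of each intron of the canonical transcripts (x axis, numbered from the 5′ end) of CHERP, SF1, U2AF2 and U2SURP; points are means and bars SDs of 6 samples, and the y axes differ. In CHERP all introns rose in WT E7107; in U2AF2 intron 3 and in U2SURP introns 12 and 13 rose in Y36C E7107.

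SF1 (chr11:64532078-64546258, minus strand), the branch point binding protein, changed its retention, an exon and a 3′ splice site. Gene retention ran from 10.4% over a median of 10.6% to 11.4% in WT DMSO, from 39.9% over 41.3% to 44.1% in WT E7107, from 10.04% over 10.54% to 10.9% in Y36C DMSO and from 10.7% over 11.2% to 11.7% in Y36C E7107. WT E7107 lay above all other samples, and the Y36C groups overlapped. The difference in log odds was 1.71 (SE 0.041, adjusted p = 1.12e-12) in WT and 0.07 (SE 0.030, adjusted p = 0.071) in Y36C, with an interaction of -1.64 (SE 0.045, adjusted p = 3.36e-19). Of its 30 boundaries tested, 7 rose and 1 fell in Y36C, where 12.4% and 0.518% of all boundaries did. The one that fell, at the distal acceptor of the last intron, went from 44.5% to 29.1% and is part of the gene mean.

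The introns of SF1 did not respond alike. Introns 1, 2 and 3, which are between 1735 and 3021 nt long, reached 16.2%, 13.6% and 17.4% in WT E7107, whereas introns 4 to 6 and 9 to 12 reached 38.4% to 49.3%, and introns 7 and 8 lay between with 29.2% and 23.5%. Both boundaries of all 12 passed the test in WT. The largest rise by the naming rule was in an alternative intron of 315 nt, from 9.08% ± 3.36 to 65.8% ± 3.2, and the smallest in the 6089-nt interval from exon 2 to exon 4, from 5.41% ± 0.619 to 11.9% ± 1.72. That interval holds exon 3, so its value averages the 5′ boundary of intron 2 and the 3′ boundary of intron 3. These stood at 1.55% and 9.28% in WT DMSO. In Y36C the last intron, intron 12 (744 nt), went from 2.64% ± 0.745 to 9.29% ± 3.1, with a 3′ boundary that rose (4.53% to 17.3%, adjusted p = 0.0021) and a 5′ boundary that did not pass (0.738% to 1.31%, adjusted p = 0.46).

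Skipping of SF1 exon 3 (76 nt, a length that is not a multiple of 3) went from rare to common in WT cells. Its PSI at the 5′ splice site of exon 2 ran from 0.322% over a median of 1.10% to 1.64% in WT DMSO and from 39.0% over 43.7% to 45.6% in WT E7107. In Y36C it ran from 1.07% over 1.52% to 2.89% in DMSO and from 3.51% over 4.49% to 5.62% in E7107. Each E7107 group lay above its DMSO group without overlap. The difference in log odds was 3.67 (SE 0.14, adjusted p = 1.92e-09) in WT and 0.78 (SE 0.11, adjusted p = 0.000601) in Y36C, and the interaction was -2.89 (SE 0.20, adjusted p = 5.02e-11). Among spliced reads alone, without the reads across the boundary, skipping took 46.3% ± 3.01 in WT E7107 and 4.73% ± 0.749 in Y36C E7107, against 1.06% ± 0.601 and 1.71% ± 0.668 in DMSO. The flanking introns 2 and 3 were, with intron 1, the least retained canonical introns of the gene in WT E7107. Skipping of exon 11 (60 nt) by an unannotated junction rose too, from 1.12% ± 0.302 to 13.8% ± 1.26 in WT (adjusted p = 5.21e-09) and from 0.931% ± 0.39 to 2.53% ± 0.918 in Y36C (adjusted p = 0.019), and the interaction passed (adjusted p = 1.28e-06).

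The 3′ splice site of the last SF1 intron differed between the genotypes without drug as well. The distal acceptor, which lengthens the intron to 1381 nt, ran from 47.4% over a median of 50.02% to 52.6% in WT DMSO and from 61.1% over 65.8% to 68.2% in Y36C DMSO. It ran from 44.2% over 52.9% to 63.4% in WT E7107 and from 77.0% over 77.9% to 81.3% in Y36C E7107. The groups in DMSO did not overlap, nor did the Y36C groups, whereas WT E7107 spread across WT DMSO. Y36C DMSO was higher than WT DMSO (log odds 0.62, SE 0.055, adjusted p = 0.00156), Y36C rose with E7107 (0.63, SE 0.061, adjusted p = 5.19e-05), and the change in WT did not pass on all reads (0.15, SE 0.13, adjusted p = 0.41). The proximal acceptor went from 49.6% ± 1.73 to 23.3% ± 3.44 in WT and from 33.7% ± 2.33 to 20.3% ± 1.58 in Y36C. It fell with E7107 in both genotypes (adjusted p = 1.38e-06 in WT and 3.03e-05 in Y36C) and was lower in Y36C in DMSO (adjusted p = 0.00118). Among spliced reads alone the distal acceptor took 50.2% ± 1.77 and 69.6% ± 5.76 in WT without and with drug, and 65.97% ± 2.38 and 79.4% ± 1.56 in Y36C, so on that scale WT rose as well (exact permutation test, two-sided, p = 0.00216, the smallest that 6 against 6 samples allow, not adjusted). The other DMSO calls, beside the same junctions read at their 3′ splice site, were of the same region: a junction from exon 11 to the distal acceptor that skips exon 12 (6.47% in WT and 2.73% in Y36C at its 5′ end, adjusted p = 0.000421), the boundary at the distal acceptor (53.3% and 44.5%, adjusted p = 0.025) and the junction of intron 11 (92.4% and 95.9%, adjusted p = 0.00197). RNA spliced to the proximal acceptor also crosses the boundary at the distal one, so the PSI of that boundary is not retention alone. PHF5A genotype and the cells that carry it cannot be told apart in the DMSO comparison. With the replicate number as a block neither acceptor passed in DMSO (adjusted p = 0.095 and 0.12).

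**Figure D3:**
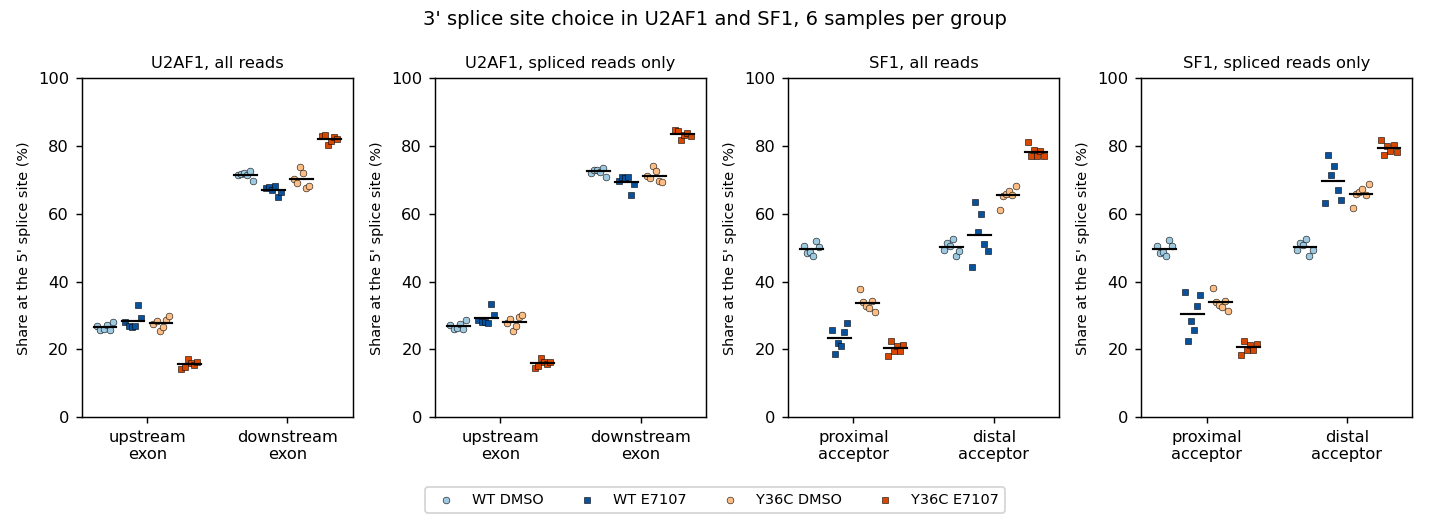
Share (%, y axis) of each of 2 alternative 3′ splice sites among all reads and among spliced reads only at their common 5′ splice site, for the U2AF1 exon pair and the last SF1 intron; points are samples and bars group means of 6. The downstream U2AF1 exon is higher in Y36C E7107 than in any other sample, and the SF1 acceptors already differ between the genotypes in DMSO.

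U2AF2 (chr19:56165512-56186082, plus strand), the large U2AF subunit, ran in gene retention from 5.87% over a median of 6.61% to 7.15% in WT DMSO and from 17.2% over 18.9% to 20.9% in WT E7107. It ran from 5.10% over 5.80% to 6.34% in Y36C DMSO and from 5.63% over 7.30% to 8.31% in Y36C E7107. WT E7107 stood apart, and the Y36C groups overlapped, although the rise in Y36C passed the test. The difference in log odds was 1.11 (SE 0.051, adjusted p = 4.68e-10) in WT and 0.19 (SE 0.061, adjusted p = 0.021) in Y36C.

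The largest change in Y36C was at exon 3. Intron 3 (294 nt) went from 3.45% ± 0.236 to 11.7% ± 0.984 in Y36C, where both boundaries rose (adjusted p = 6.62e-07 and 4.45e-06), and from 2.61% ± 0.52 to 11.8% ± 1.89 in WT. The interaction passed at its 3′ boundary (adjusted p = 0.030) and not at its 5′ boundary (adjusted p = 0.70). Skipping of exon 3 (45 nt), by a junction that is not annotated, ran from 0.408% over a median of 1.82% to 2.33% in WT DMSO, from 1.35% over 1.62% to 1.72% in WT E7107, from 1.77% over 2.02% to 2.59% in Y36C DMSO and from 5.62% over 8.19% to 10.8% in Y36C E7107. Every Y36C E7107 sample was above every other sample (Y36C log odds 1.14, SE 0.11, adjusted p = 5.52e-05; WT 0.03, SE 0.15, adjusted p = 0.90; interaction adjusted p = 0.000112). The largest rise by the rule in WT was in an alternative intron of 581 nt, from 23.2% ± 4.34 to 56.7% ± 2.58, and the smallest in intron 11 (4241 nt), from 0.878% ± 0.191 to 6.92% ± 0.908. Introns 5 to 11 overlap a long noncoding RNA gene on the opposite strand, and its part in the values was not tested; introns 1 to 4 lie outside it and rose in WT to between 8.06% and 12.2%.

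U2AF1 (chr21:44513066-44527680, minus strand), the small subunit, had a small change in retention and, in Y36C, a change in exon choice. Its gene retention ran from 1.97% over a median of 2.62% to 3.02% in WT DMSO, from 7.87% over 8.49% to 8.93% in WT E7107, from 2.34% over 2.61% to 3.03% in Y36C DMSO and from 2.66% over 3.13% to 4.03% in Y36C E7107. WT E7107 was above all other samples. The log odds rose by 1.05 (SE 0.061, adjusted p = 4.51e-09) in WT, and the difference in Y36C was 0.15 (SE 0.066, adjusted p = 0.086). Intron 6 (91 nt) rose most in WT, from 0.436% ± 0.206 to 9.80% ± 1.18, and intron 2 (3795 nt) least, from 2.99% ± 0.643 to 6.04% ± 0.664. The annotation also holds an entry of type artifact over the whole of U2AF1 (ENSG00000275895).

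The junction into the downstream exon of the U2AF1 pair ran from 69.6% over a median of 71.7% to 72.5% in WT DMSO and from 64.97% over 67.4% to 68.3% in WT E7107. It ran from 67.6% over 69.7% to 73.8% in Y36C DMSO and from 80.3% over 82.4% to 83.2% in Y36C E7107. The 2 genotypes moved in opposite directions: WT fell below its DMSO group and Y36C rose above its own, without overlap in either case. The log odds fell by 0.20 in WT (SE 0.069, adjusted p = 0.033) and rose by 0.64 in Y36C (SE 0.059, adjusted p = 3.2e-05), with an interaction of 0.85 (SE 0.12, adjusted p = 4.9e-06). The call in WT was lost with an offset of 0.1 points (adjusted p = 0.15). The junction into the upstream exon went from 26.5% ± 0.965 to 28.4% ± 2.41 in WT and from 27.7% ± 1.54 to 15.6% ± 1.05 in Y36C, and it fell in Y36C (adjusted p = 6.31e-06) while the change in WT did not pass (adjusted p = 0.41). Among spliced reads alone the downstream exon took 72.5% ± 0.966 and 69.4% ± 2.04 in WT, and 71.2% ± 1.82 and 83.6% ± 1.04 in Y36C. In Y36C the retention on both sides of the downstream exon fell, from 6.01% to 4.07% at its 3′ splice site (adjusted p = 0.00332) and from 4.37% to 1.74% at the 5′ splice site after it (adjusted p = 0.00334), and these were 2 of the 3 member boundaries that fell in Y36C. The third was at the distal SF1 acceptor, a boundary that RNA spliced to the proximal acceptor crosses as well. By the rule the largest increase in Y36C was in the 5622-nt interval between the upstream exon and exon 4, from 5.15% ± 0.551 to 7.96% ± 2.84, where neither boundary passed. That interval holds the downstream exon, and its boundaries moved apart. The 5′ boundary went from 7.29% to 14.1% and the 3′ boundary from 3.02% to 1.85%.

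U2AF1L4 (chr19:36233365-36236346, minus strand), the U2AF1 paralogue, had the highest gene retention of the members without drug. That mean includes boundaries at alternative splice sites, which RNA spliced at a neighbouring site can also cross. Its gene retention ran from 19.9% over a median of 23.6% to 31.9% in WT DMSO, from 48.2% over 49.5% to 54.5% in WT E7107, from 19.4% over 24.3% to 30.6% in Y36C DMSO and from 26.4% over 32.5% to 38.1% in Y36C E7107. WT E7107 did not overlap its control, whereas the Y36C groups did. The rise was 1.13 in log odds (SE 0.093, adjusted p = 1.51e-07) in WT and 0.38 (SE 0.13, adjusted p = 0.027) in Y36C. In WT intron 4 (107 nt) rose most, from 7.02% ± 10.5 to 59.2% ± 10.2, and intron 1 (135 nt) least, from 28.1% ± 9.46 to 36.2% ± 6.92. In intron 4 the lowest sample of every group but WT E7107 was at 0. Intron 3 (177 nt) went from 34.3% ± 7.87 to 59.2% ± 13.4 in Y36C, where both boundaries rose (adjusted p = 0.034 and 0.024), and from 32.6% ± 5.74 to 53.5% ± 10.1 in WT, where the 5′ boundary rose (adjusted p = 0.00015) and the 3′ boundary did not pass (adjusted p = 0.082). A protein-coding gene on the same strand (ENSG00000267120) overlaps the whole of U2AF1L4, and its part in these values was not tested.

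ZRSR2 (chrX:15808279-15848817, plus strand), the factor of minor introns, was measured least well. Only 12 of its 25 annotated boundaries had reads in all 24 samples, and 5 of its 10 canonical introns had both. Its gene retention ran from 1.66% over a median of 3.38% to 6.15% in WT DMSO, from 8.80% over 14.4% to 23.6% in WT E7107, from 0.694% over 3.91% to 5.87% in Y36C DMSO and from 3.48% over 5.43% to 12.8% in Y36C E7107. The WT groups did not overlap and the Y36C groups did. The mean rose in WT (log odds 1.48, SE 0.21, adjusted p = 3.29e-05) and did not pass in Y36C (0.50, SE 0.26, adjusted p = 0.14), and 0 of its 12 boundaries passed on their own in WT. In Y36C 1 rose, the 3′ boundary of intron 8 (adjusted p = 0.00664). Its intron 10 had 5.12% ± 5.3 and 27.8% ± 15.5 in WT, and intron 8 had 3.36% ± 2.89 and 2.78% ± 6.8. Intron 7 had the largest difference in Y36C, 4.17% ± 6.97 against 8.22% ± 8.71.

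PUF60 (chr8:144898514-144912879, minus strand), the pyrimidine tract binder, ran in gene retention from 13.997% over a median of 15.0% to 16.4% in WT DMSO, from 44.2% over 45.8% to 47.7% in WT E7107, from 13.8% over 14.9% to 15.5% in Y36C DMSO and from 14.5% over 16.3% to 17.7% in Y36C E7107. WT E7107 stood apart and the Y36C groups overlapped. The log odds rose by 1.51 (SE 0.043, adjusted p = 4.44e-12) in WT, and the difference in Y36C was 0.10 (SE 0.043, adjusted p = 0.065). Its 11 canonical introns, with 0.0827% to 5.38% in WT DMSO, had 14.7% to 47.1% in WT E7107, and both boundaries of all 11 rose. By the rule an alternative intron of 2985 nt rose most in WT, from 14.9% ± 5.41 to 68.5% ± 2.76, and one of 4883 nt least, from 44.5% ± 1.01 to 49.3% ± 2. The 2 boundaries of the 4883-nt intron were far apart. In WT the 5′ boundary went from 0.606% to 4.30% and the 3′ boundary from 88.5% to 94.3%. Its acceptor lies just beyond that of a 4880-nt junction with a PSI of 49.6% in WT DMSO. RNA spliced at that junction also crosses the 3′ boundary. The largest increase in Y36C, 55.6% ± 9.83 to 62.0% ± 11.7 in an intron of 1447 nt, was within the spread between samples and neither boundary passed.

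Skipping of PUF60 exon 5 (51 nt) depended on the denominator in WT cells. On all reads it ran from 32.3% over a median of 35.3% to 37.3% in WT DMSO, from 24.0% over 25.7% to 26.1% in WT E7107, from 37.6% over 38.7% to 41.7% in Y36C DMSO and from 39.9% over 43.8% to 47.1% in Y36C E7107. WT E7107 was the lowest group and Y36C E7107 the highest. It fell in WT (log odds -0.45, SE 0.073, adjusted p = 0.000271) and rose in Y36C (0.19, SE 0.055, adjusted p = 0.041). Among spliced reads alone WT rose, from 35.8% ± 1.81 to 40.1% ± 0.712 (exact permutation test, two-sided, p = 0.00216), beside 39.7% ± 1.57 and 44.8% ± 2.72 in Y36C (p = 0.00433 by the same exact test). On that scale both genotypes moved the same way. They also differed in DMSO there (p = 0.00216 by the same exact test, not adjusted), whereas on all reads the DMSO difference did not pass (adjusted p = 0.30). Exon 2 (87 nt) was skipped in 40.3% ± 1.82 and 44.4% ± 2.53 of reads in WT without and with drug, and in 34.0% ± 7.03 and 44.98% ± 3.63 in Y36C, where the rise passed (adjusted p = 0.038).

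RBM17 (chr10:6130997-6159420, plus strand), a U2AF homology motif protein, ran in gene retention from 2.05% over a median of 2.46% to 2.66% in WT DMSO and from 21.7% over 24.7% to 27.9% in WT E7107. It ran from 2.37% over 2.46% to 2.91% in Y36C DMSO and from 2.27% over 2.66% to 3.32% in Y36C E7107. Its Y36C groups overlapped almost entirely. The log odds rose by 2.26 (SE 0.058, adjusted p = 1.76e-12) in WT, second to CHERP on this scale, and the difference in Y36C was 0.04 (SE 0.052, adjusted p = 0.57). All 22 boundaries tested rose in WT and 0 in Y36C. Intron 4 (1043 nt) rose most, from 0.577% ± 0.444 to 38.1% ± 6.13, and intron 11 (141 nt) least, from 1.88% ± 0.576 to 10.9% ± 1.01. The largest difference in Y36C was in intron 9 (467 nt), 2.80% ± 0.234 against 3.74% ± 0.941, and neither boundary passed. Skipping of exon 9 (74 nt) by an unannotated junction ran from 0 over a median of 0.348% to 0.687% in WT DMSO and from 2.92% over 5.22% to 8.66% in WT E7107, was listed at 0 in all Y36C DMSO samples, and reached 1.57% at most in Y36C E7107. It rose in WT (log odds 1.68, SE 0.17, adjusted p = 5.31e-06). It passed in Y36C too (0.46, SE 0.13, adjusted p = 0.036), a call that was lost with PSI as the response (adjusted p = 0.098), with no minimum of mean PSI (0.062) and with the replicate block (0.082).

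U2SURP (chr3:142683339-142779567, plus strand), which joins CHERP and RBM17 at the U2 snRNP, held the only boundaries among the 10 genes called higher in Y36C than in WT under E7107. Its gene retention ran from 2.67% over a median of 2.96% to 3.10% in WT DMSO, from 8.25% over 12.7% to 16.1% in WT E7107, from 2.60% over 2.80% to 2.96% in Y36C DMSO and from 4.70% over 4.91% to 5.53% in Y36C E7107. Neither E7107 group overlapped its control. The log odds rose by 1.31 (SE 0.0997, adjusted p = 6.92e-08) in WT and by 0.48 (SE 0.035, adjusted p = 5.45e-07) in Y36C, the largest rise in Y36C to pass among the 10 genes on this scale. In WT 47 of 55 boundaries rose, most in intron 20 (1074 nt) from 1.62% ± 0.827 to 22.8% ± 8.34.

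The introns on either side of U2SURP exon 13 (44 nt) behaved otherwise. Intron 12 (910 nt) ran from 13.6% over a median of 16.1% to 19.4% in WT DMSO, from 10.4% over 14.4% to 19.4% in WT E7107, from 13.9% over 14.2% to 19.8% in Y36C DMSO and from 31.2% over 34.9% to 40.3% in Y36C E7107. Intron 13 (3130 nt) ran from 16.9% over 18.8% to 22.6%, from 3.96% over 15.9% to 18.8%, from 9.69% over 18.6% to 23.95% and from 31.8% over 35.9% to 47.7% in the same groups. Every Y36C E7107 sample was above every other sample in both introns, and the WT groups overlapped. All 4 boundaries rose in Y36C (adjusted p between 3.72e-05 and 0.0157), none passed in WT (adjusted p between 0.0787 and 0.492), and all 4 had a positive interaction (adjusted p between 9.61e-05 and 0.00542). Skipping of exon 13 went from 1.30% ± 0.737 to 1.09% ± 0.885 in WT and from 1.37% ± 0.581 to 6.62% ± 2.21 in Y36C, and it rose in Y36C (log odds 1.21, SE 0.16, adjusted p = 0.000406) but the change in WT did not pass (adjusted p = 0.64). Inclusion by the junction from exon 12 fell from 80.8% ± 5.22 to 54.2% ± 4.4 in Y36C (adjusted p = 0.000155). Its acceptor, printed above, has 9 pyrimidines among the 17 bases scored, and intron 12 has 30.9% GC, beside a median of 31.5% over the canonical introns of U2SURP. Skipping of U2SURP exon 27 (177 nt) stood at 12.6%, 12.2%, 13.4% and 12.8% and passed no test.

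SUGP1 (chr19:19386827-19431318, minus strand), the SF3B1-binding G-patch protein, had the smallest change in WT. Its gene retention ran from 3.38% over a median of 4.19% to 4.73% in WT DMSO, from 7.30% over 8.37% to 12.3% in WT E7107, from 3.53% over 4.59% to 5.45% in Y36C DMSO and from 4.02% over 6.02% to 8.18% in Y36C E7107. The WT groups did not overlap and the Y36C groups did. The log odds rose by 0.70 (SE 0.085, adjusted p = 6.11e-06) in WT, and the difference in Y36C was 0.24 (SE 0.098, adjusted p = 0.064). Of its 26 boundaries 3 rose in WT. An alternative intron of 10262 nt rose most, from 0.488% ± 0.762 to 13.8% ± 5.87, and intron 12 (657 nt) had 0.598% ± 0.662 and 1.61% ± 1.91. Intron 4 (2001 nt) was at 20.7% ± 5.66, 24.8% ± 9.56, 20.4% ± 2.7 and 29.2% ± 6.63, and neither boundary passed in either genotype.

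Skipping of SUGP1 exon 3 (104 nt) ran from 0 over a median of 2.14% to 3.70% in WT DMSO and was listed at 0 in all 6 WT E7107 samples. It ran from 0 over 0.926% to 2.44% in Y36C DMSO and from 3.70% over 6.99% to 8.16% in Y36C E7107. Y36C E7107 was at or above every other sample. It rose in Y36C (log odds 1.51, SE 0.27, adjusted p = 0.00296) and fell in WT (-0.91, SE 0.29, adjusted p = 0.025), and the interaction passed (2.42, SE 0.41, adjusted p = 3.97e-05). The fall in WT was lost with PSI itself as the response (adjusted p = 0.054). Among spliced reads alone it did not reach 0.05 either (exact permutation test, two-sided, p = 0.061, not adjusted).

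**Figure D4:**
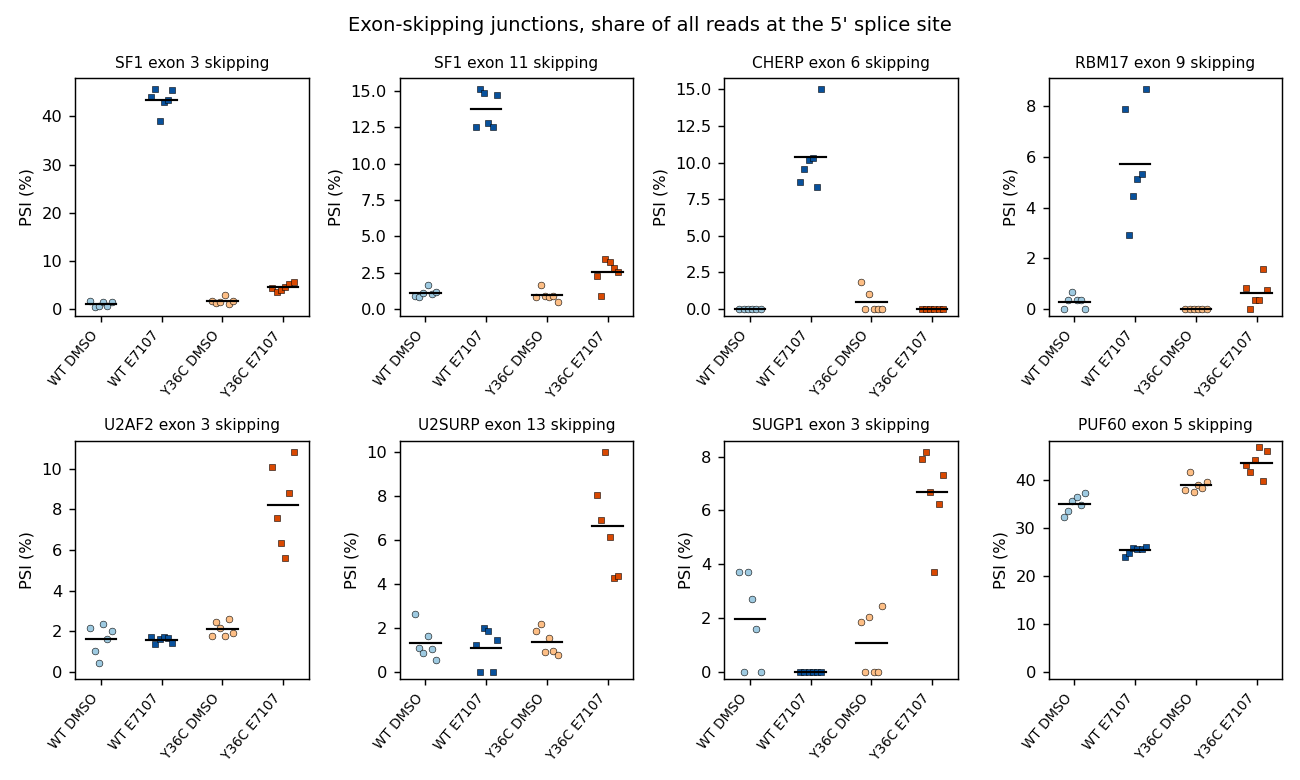
PSI (%, y axis) of 8 exon-skipping junctions among all reads at their 5′ splice site in each of the 24 samples (groups on the x axis, bars at the means of 6); the y axes differ. SF1 exons 3 and 11, CHERP exon 6 and RBM17 exon 9 were skipped most in WT E7107, and U2AF2 exon 3, U2SURP exon 13, SUGP1 exon 3 and PUF60 exon 5 in Y36C E7107.

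In all, 29 annotated exons in 9 of the genes had both skipping and inclusion at 5% or more in some group, and 12 of them belonged to canonical transcripts. SF1 exons 3, 11 and 12, PUF60 exons 2 and 5, U2SURP exons 13 and 27, U2AF2 exon 3, SUGP1 exon 3, RBM17 exon 9 and the downstream U2AF1 exon were given above. The last is CHERP exon 6 (112 nt), whose skipping was at 0 in all WT DMSO and all Y36C E7107 samples, at 1.82% at most in Y36C DMSO, and between 8.33% and 15.0% with a median of 9.90% in WT E7107. WT E7107 did not overlap the other groups, and the rise passed in WT (log odds 2.52, SE 0.11, adjusted p = 3.81e-09). It was 36.8% ± 9.89 of the spliced reads at that 5′ splice site. Skipping of PUF60 exon 2 and of U2SURP exon 27 did not pass the interaction test (adjusted p = 0.20 and 0.998), and that of RBM17 exon 9 missed the threshold with an offset of 0.1 points (adjusted p = 0.096).

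Changes were also ranked among the spliced junctions at sites with a choice only. The junction with the largest called change in WT was that of CHERP intron 2, from 97.4% ± 1.90 to 21.4% ± 4.82 (98.5% and 96.5% in Y36C), of a 315-nt intron of SF1, from 81.9% ± 6.66 to 10.4% ± 2.58, and of a 2985-nt intron of PUF60, from 70.0% ± 10.97 to 9.84% ± 2.27. At such sites the change was smaller in the rest, for example from 96.3% ± 0.899 to 58.03% ± 2.94 in RBM17, from 84.1% ± 4.88 to 45.6% ± 6.72 in U2AF1L4 and from 85.6% ± 2.53 to 71.3% ± 8.10 in U2SURP. Over all spliced rows tested, the lowest difference in WT was -82.5 percentage points in CHERP, -72.3 in SF1, -64.9 in U2AF1L4 and -60.2 in PUF60. In Y36C the most changed junction of U2AF1L4 rose, from 27.1% ± 8.21 to 48.3% ± 8.05 (adjusted p = 0.010), and no alternative junction of CHERP or ZRSR2 passed.

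Across the 118 canonical introns with reads at both boundaries in every sample, the median retention went from 1.02% in DMSO to 14.98% in E7107 in WT, and from 0.930% to 1.75% in Y36C. As a description over these introns, the change in WT had a Spearman rho of 0.35 with intron GC content and -0.27 with intron length. With the share of pyrimidines among the same 17 bases, without the base next to the AG, rho was -0.07. Introns of 1 gene share their transcript and its base composition, and within genes the rho with GC ran from -0.90 (U2AF1L4, 5 introns) to 0.49 (U2AF2, 11 introns).

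**Figure D5:**
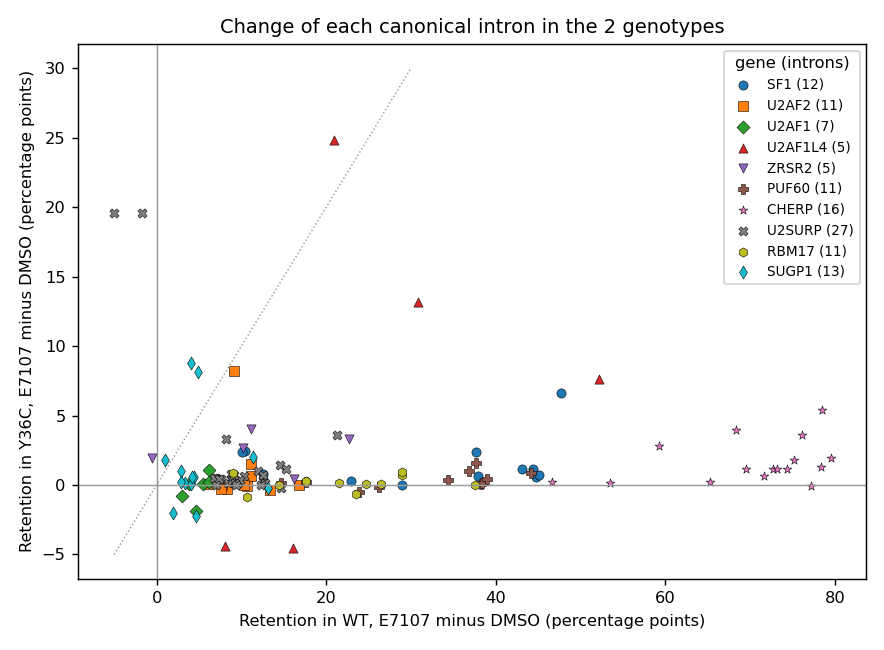
Change in retention with E7107 (percentage points) of each of the 118 canonical introns in WT (x axis) and in Y36C (y axis), by gene; the dotted line marks equal change. CHERP introns lie far to the right near 0 on the y axis, and U2SURP introns 12 and 13 lie at the upper left.

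The neighbouring machinery was read from 25 further genes of U2 and U1 snRNPs, branch point and 3′ splice site selection, of which 24 could be measured (SF3B5 had no interval with enough boundaries). All 24 rose in WT (71.9% of all genes), 10 rose and 0 fell in Y36C (47.2% and 0.992% of all genes), none passed in DMSO, and 23 were lower in Y36C than in WT under E7107 (64.7% of all genes). The median change was 11.8 percentage points in WT and 0.33 in Y36C, beside 6.81 and 1.03 over all genes. RBM5, a relative of RBM10 that acts in 3′ splice site selection, went from 7.98% to 64.8% in WT (adjusted p = 2.68e-13) and from 7.33% to 16.1% in Y36C (adjusted p = 7.88e-07). SF3A2, of the SF3a complex, went from 1.82% to 49.6% in WT (adjusted p = 8.85e-14), and SF3B1, the partner of PHF5A in the drug pocket, from 2.51% to 5.23% (adjusted p = 4.96e-07) with 2.55% and 2.42% in Y36C. PHF5A itself went from 6.40% to 20.8% in WT (adjusted p = 0.00148) and was at 7.55% and 7.26% in Y36C; reads from an overexpressed copy without introns cannot be told apart from those of the gene. The change of CHERP in WT was larger than that of each of these 24 genes.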

How the data were processed

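The deposited files hold 1 percent value (PSI) for each of 1830076 junction rows in each of the 24 samples. The submitters' processing notes name STAR and hg19. By the study's methods, the authors counted junction reads with STAR and expressed each count relative to all junctions at the same splice site. The STAR version is not given in the sources used here. Rows on the mitochondrial genome or without a strand (6433) were left out. A splice site whose rows summed to 0 was treated as missing. Coordinates are hg19 (GRCh37), and genes, exons and introns come from GENCODE v44 lifted to GRCh37, with sequence from the GRCh37 primary assembly.

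The groups and replicate numbers come from the sample labels. limma 3.58.1 in R 4.3.3 was fitted to ln((PSI + 1)/(100 - PSI + 1)) over all rows with reads at the site in all 24 samples and a mean PSI of at least 1%, with 12 samples per comparison and 24 for the interaction of genotype and treatment. p-values were adjusted by Benjamini-Hochberg over all rows, and 0.05 or less was called. Gene retention was tested in the same way over 10590 genes. The fits were tested on simulated data. Treatments were in hexaplicate by the study's methods, and nothing says whether the 6 were separate cultures, so p-values measure the spread between these samples, which may be technical.

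All 10 genes are named. In each, the rule names the annotated introns with the largest and smallest rise in WT and the largest in Y36C, the U2AF1 exon pair, and annotated cassette exons and acceptor pairs with both choices at 5% or more. In 8 of the genes, 17 splice sites (5′) had 2 or more such acceptors, and not all of these are given above. The members and lists were chosen with earlier results of these data known. Alternatives were PSI itself as the response, an offset of 0.1, a mean PSI of at least 5% or no minimum, all boundary rows in the span, and the replicate number as a block. The share among spliced reads, with exact permutation tests for 12 junctions and 48 comparisons that were not adjusted, was added after seeing the data.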

Additional observations from a re-analysis of the deposited data

Results flagged for a closer look

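In 3 of the 88 sets of 6 samples examined for a sample far from the others, 1 sample stood apart by Dixon's test; chance flags about 1 set in 20. These were a Y36C DMSO sample with 2.89% skipping of SF1 exon 3 (median 1.53%), a WT E7107 sample with 15.0% skipping of CHERP exon 6 (median 9.90%) and a WT DMSO sample with 69.6% use of the downstream U2AF1 exon (median 71.7%).

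The effect of E7107 differed between WT and Y36C cells by the interaction test (limma, Benjamini-Hochberg; difference of the changes in log odds, Y36C minus WT) for the mean retention of all 10 genes. The differences were -3.67 for CHERP, -2.22 for RBM17, -1.64 for SF1, -1.40 for PUF60, -0.977 for ZRSR2 (adjusted p = 0.0153), -0.916 for U2AF2, -0.898 for U2AF1, -0.826 for U2SURP, -0.756 for U2AF1L4 and -0.465 for SUGP1 (adjusted p = 0.00287). It differed as well for 12 named junctions. The difference was -2.89 for skipping of SF1 exon 3, -1.48 for SF1 exon 11, -2.82 for CHERP exon 6 and -1.22 for RBM17 exon 9. It was 1.10 for U2AF2 exon 3, 1.37 for U2SURP exon 13, 2.42 for SUGP1 exon 3 and 0.637 for PUF60 exon 5. It was -0.789 for the upstream and 0.848 for the downstream U2AF1 exon, and 0.484 for the proximal and 0.48 for the distal SF1 acceptor (adjusted p = 0.00898 and 0.024). These values are on all reads, where retention is in the denominator. Among spliced reads alone the distal acceptor rose by 19.3 percentage points in WT and 13.4 in Y36C, the proximal one fell by 19.3 and 13.4, and PUF60 exon 5 skipping rose by 4.37 and 5.06. The difference between the genotypes was not tested on that scale.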

How the results depend on the processing

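Of the alternative counts of members called, 59 were within 1.5 times the count reported and 6 were not. With a mean PSI of at least 5%, 160 member boundaries were tested, and 129 were called in WT (207 of 258 as reported), 128 between genotypes under E7107 and 122 by interaction. In DMSO the 1 boundary call was lost with an offset of 0.1 points (0 calls) and with the replicate number as a block (0 calls), and the block left 0 of the 6 spliced calls in DMSO. No 2 samples with the same number in different groups had a correlation over 0.1 (-0.0062 to 0.0073 in 36 pairs). Not every sample was closest to its own number, but 10 of 24 were, where 4 would be with no link, a hint from the data and not the design. The calls lost under the block are not shown to be weaker: the proximal and distal SF1 acceptor in DMSO (adjusted p = 0.095 and 0.118) and, in Y36C, U2AF1L4 retention (0.051) and skipping of SF1 exon 11 (0.105), while SUGP1 retention in Y36C newly passed (0.028). The SF1 interactions were lost with an offset of 0.1 points (adjusted p = 0.065 and 0.086), and the PUF60 exon 5 call in Y36C with that offset (adjusted p = 0.10) and the block (adjusted p = 0.11). The gene means of SF1 and PUF60 in Y36C passed with PSI as the response (adjusted p = 0.014 and 0.037). Among spliced reads PUF60 exon 5 skipping in WT turned from a fall to a rise of 4.37 percentage points. Of the alternative values of single genes and junctions, 444 kept their direction and side of the threshold, 16 fell short of it, 7 newly passed it and 1 reversed. The files give no depth, so an intron at 0 is not shown to be fully spliced, and fewer sites had reads in WT E7107.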
